A study of Homo sapiens with 6 samples.

Results

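AGR2, MSMB and SPINK1 are genes of secretory epithelium, and all 3 were higher in condition V than in condition C of the authors' deposited comparison of C4-2B prostate cancer cells. They were taken as the rows of the table that carry these symbols, 3 of 6018 listed genes. The members were chosen by name with their listed log2 fold changes and adjusted p-values in this comparison known, so those values are given as a description and no test is attached to them.

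C4-2B is an established human prostate cancer line descended from LNCaP xenografts in castrated mice, and its labels give bone metastasis as the source. RNA was sequenced from 3 libraries of the parental line, labelled passage 0, and 3 of a subline labelled passage 15 to 18. The subline had been selected in abiraterone, an inhibitor of the androgen-synthesis enzyme CYP17A1, at 1 to 20 µM for at least 6 months and was then kept in 5 µM. The parental cells were passaged beside it in 1% DMSO, and both grew with 10% serum. The extraction protocol names 10 µM abiraterone without stating whether both lines received it. Passage number and cell line cannot be told apart, and the labels do not say whether the libraries of a line came from separate cultures.

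The authors' deposited table gives 1 comparison and no value per library, so the values of single libraries, their overlap and their depth are not known here. Its header calls C the control and V the vehicle and states that negative log2 fold changes mean higher expression in V. The parental titles carry a V, while DMSO is a vehicle and the parental cells are also named as the control. The header does not tie either letter to a cell line, so directions are given as C or V only. The list is selected: every gene in the authors' deposited table has a p below 0.05 and a log2 fold change of 1.20 or more in size. For genes outside the list either limit may have been missed. In bulk RNA, fewer cells making a transcript and less of it per cell cannot be told apart.

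AGR2 encodes a disulfide isomerase of the endoplasmic reticulum that helps mucins and other secreted proteins fold, and it is found in luminal and mucus-producing epithelia. MSMB encodes beta-microseminoprotein, a small cysteine-rich protein that luminal prostate cells release into seminal fluid, and the polycomb methyltransferase EZH2 is known to silence it in prostate cancer. SPINK1 encodes a secreted Kazal-type trypsin inhibitor, best known from the pancreas, which marks a subset of prostate cancers and is inducible by IL6.

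AGR2 had the highest mean and the smallest fold change of the 3. The authors' deposited table lists AGR2 at a mean of 651 normalised counts and a log2 fold change of C over V of -2.90 ± 0.10 (listed standard error). This is a 7.46-fold higher level in V, with a 95% interval of 6.47 to 8.60. If C and V hold equally many libraries, the AGR2 levels behind that mean and ratio in the authors' deposited table are 154 normalised counts in C and 1147 in V. AGR2 was thus well expressed on both sides. The gene (ENSG00000106541) lies on the minus strand of chromosome 7 at 16791811 to 16833433 in GENCODE release 29 (GRCh38), with 7 annotated transcripts.

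MSMB differed more and had fewer normalised counts, with no allowance for length. The authors' deposited table gives it a mean of 233 normalised counts and a log2 fold change of -5.43 ± 0.26, a 43.0-fold higher level in V with a 95% interval of 30.1 to 61.3. The derived MSMB levels from the authors' deposited table are 10.6 normalised counts in C and 456 in V. MSMB (ENSG00000263639) lies on the minus strand of chromosome 10 at 46033307 to 46046269, with 2 annotated transcripts.

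SPINK1 had the largest fold change and the least certain one. The authors' deposited table gives a mean of 151 normalised counts and a log2 fold change of -6.91 ± 1.19. The 95% interval of the V over C ratio of SPINK1 runs from 24.0 to 607 around a value of 121. Its derived levels from the authors' deposited table are 2.49 normalised counts in C and 300.3 in V, so SPINK1 reads were few in C. SPINK1 (ENSG00000164266) lies on the minus strand of chromosome 5 at 147824568 to 147831786, with 3 annotated transcripts.

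All 3 genes have a listed adjusted p under 0.05, from the authors' DESeq2 Wald test with Benjamini-Hochberg adjustment, as do 92.7% of the listed protein-coding genes and 89.5% of all listed genes. Of the listed protein-coding genes 61.1% were called higher in V and 31.7% were called higher in C. The rule used this contrast, so nothing is read from the count. These adjusted p-values from the authors' deposited table are 1.09e-166 for AGR2, 2.2e-93 for MSMB and 3.63e-08 for SPINK1. Genes under that limit are referred to as called. Among called protein-coding genes of the table, 65.9% were higher in V, and the median log2 fold change was -1.55. By the size of the fold change, AGR2 exceeded 66.8% of the 2954 listed protein-coding genes, MSMB 91.7% and SPINK1 96.6%. SPINK1 has the largest fold change and, by its Wald statistic, ranks only 1054th toward V, against 70th for AGR2 and 165th for MSMB.

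**Figure D1:**
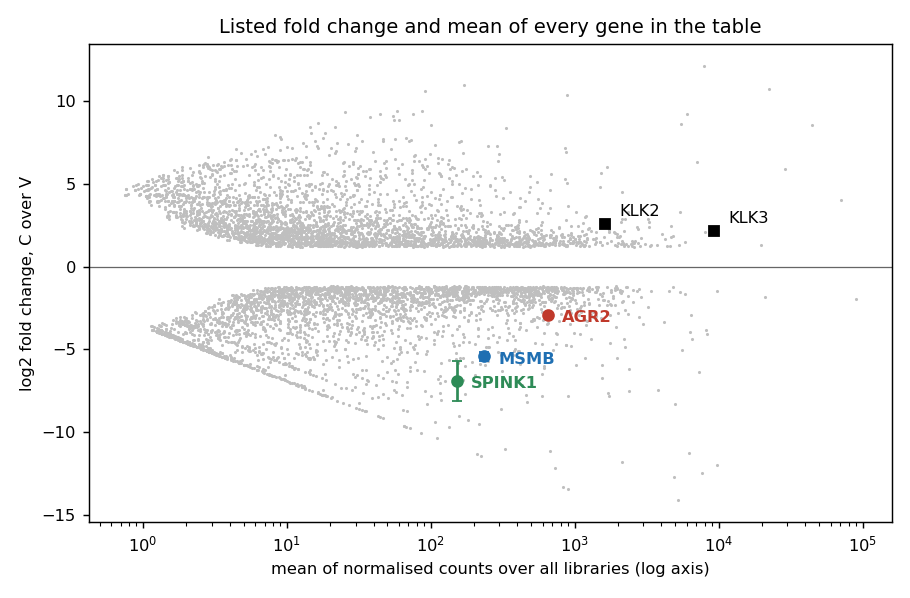
Listed log2 fold change of C over V (vertical) against the mean of normalised counts (horizontal, log axis) for all 6018 genes in grey, with AGR2, MSMB and SPINK1 as coloured circles and the kallikreins KLK2 and KLK3 as black squares; bars are 1 listed standard error. The 3 coloured genes lie below 0 at -2.90, -5.43 and -6.91, and the kallikreins above 0; the empty band around 0 is where the table lists no gene.

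The fold changes of the 3 genes differed from one another by unequal amounts. MSMB was 2.53 ± 0.28 log2 units farther toward V than AGR2, a gap of -3.08 to -1.97 with 95% error (MSMB minus AGR2). SPINK1 minus AGR2 was -4.02 ± 1.19, with an interval of -6.35 to -1.68. SPINK1 minus MSMB was -1.49 ± 1.22, with an interval of -3.88 to 0.90, so the order of SPINK1 and MSMB is not determined by these data. The errors of these differences treat the genes as independent, although they come from the same libraries.

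The listed error of SPINK1 was wide. The 3 called protein-coding genes closest to SPINK1 in mean and fold change were the interferon-induced GTPase GBP1, the actin-associated SYNPO2L and the keratin KRT6C. In the authors' deposited table GBP1 stood at -6.82 ± 0.47, SYNPO2L at -6.92 ± 0.56 and KRT6C at -7.03 ± 0.61. SPINK1 at -6.91 ± 1.19 thus had a larger error than each of them at a like level; KRT6C is a close copy of other keratins, so its reads may be divided among them. Solving the standard error for the spread between libraries, under the assumption of 3 libraries a side, gives SPINK1 a dispersion of 0.816, equal to a coefficient of variation of 90.4%. For AGR2 the same calculation gives 0.0042, or 6.48%, and for MSMB 0.00119, or 3.44%. The median over 1028 listed protein-coding genes with a mean of 100 to 1000 and a lower level of at least 1 was 0.00739, and SPINK1 lay above 98.9% of them. Under that assumption the listed errors correspond to a wide spread of SPINK1 in C, V or both, and a small spread of AGR2. The spread itself could not be seen, because no value per library is given. Which libraries differed in SPINK1 is not known. The listed error of MSMB lay close to the counting error of its derived C level of 10.6 normalised counts. Its spread between libraries is therefore poorly determined, and a small spread cannot be read from its value. For a derived level as low as that of SPINK1 in C the calculation is approximate.

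SPINK1 was among 11 of these 1028 genes with a dispersion of at least 0.816, and 9 of the 11 were higher in C, whatever their adjusted p. Of all listed protein-coding genes 31.7% were called higher in C, and the share among the 1028 was not counted. The 11 genes were singled out after their values were seen, so nothing is read from their direction. The other one higher in V was the B-cell factor PAX5 (-3.77 ± 1.21), and those higher in C included the splicing factor SRRM4 (5.06 ± 1.25), the stem cell receptor LGR5 (4.64 ± 1.35) and the RNA-editing cofactor A1CF (4.32 ± 1.39), as given in the authors' deposited table.

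**Figure D2:**
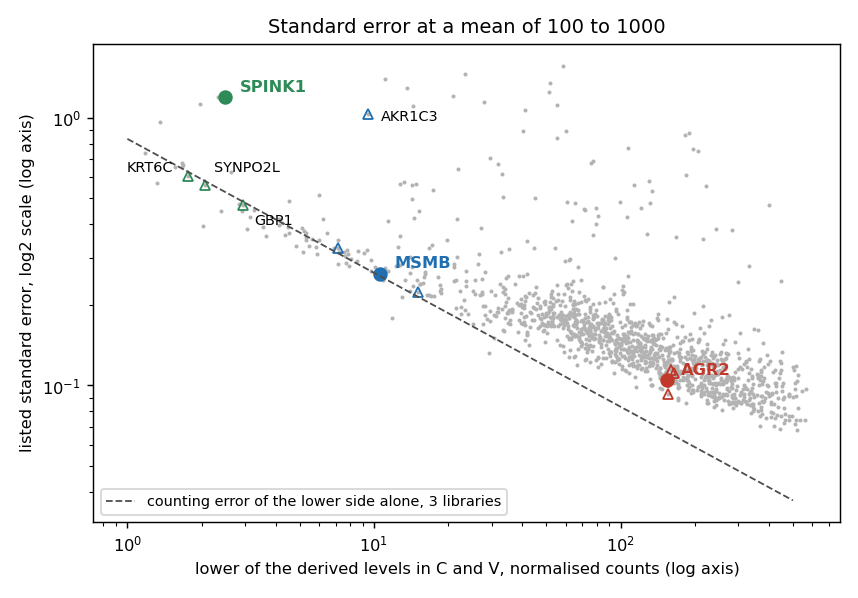
Listed standard error of the log2 fold change (vertical, log axis) against the lower of the derived levels in C and V (horizontal, log axis) for listed genes of any type with a mean of 100 to 1000 (grey), the 3 members (filled circles) and the 3 genes nearest to each in mean and fold change (open triangles of the same colour). MSMB and the triangles nearest to SPINK1 lie close to the dashed line of counting error for 3 libraries, while SPINK1 lies well above it at 1.19.

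The nearest genes of the other members came from different families. For AGR2 they were the actin-filament protein AFAP1 (-2.91 ± 0.09), the AP-1 subunit FOSL2 (-2.79 ± 0.11) and the membrane protein BRI3 (-2.74 ± 0.11) in the authors' deposited table. For MSMB they were the ketosteroid reductase AKR1C3 (-5.69 ± 1.03), the MHC class I regulator NLRC5 (-5.32 ± 0.22) and SAMD9 (-5.74 ± 0.33) in the authors' deposited table. Likeness was the distance in the plane of log2 fold change and log2 mean over 2714 candidates and 1 comparison. AKR1C3 has near-identical neighbours, which makes its reads uncertain.

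Among other secretory proteins of the prostate and its luminal cells, the direction was divided. Of 35 genes in that list, 16 were listed and all 16 were called, 11 higher in V (68.8%) and 5 higher in C. That share is close to the 65.9% of all called protein-coding genes. The median log2 fold change of the 16 was -2.54, against -1.55 for all called protein-coding genes; the list includes the 3 members. Without AGR2, MSMB and SPINK1, 8 of 13 were higher in V with a median of -1.45.

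On the V side, SPINK1, MSMB and AGR2 ranked 4th, 5th and 7th of the 16. Farther toward V in the authors' deposited table were the trefoil peptide TFF1 (-9.40 ± 1.19), the ferroxidase CP (-8.62 ± 0.65) and the prolactin-induced protein PIP (-8.30 ± 1.04). The derived C levels of TFF1 and PIP in the authors' deposited table were 0.318 and 0.589 normalised counts, so the sizes of these fold changes are poorly determined. ZG16B, a secreted lectin, stood at -2.48 ± 0.08 in the authors' deposited table, the polymeric immunoglobulin receptor PIGR at -2.59 ± 0.31, the chaperone CLU at -1.45 ± 0.09 and the protease inhibitor SLPI at -1.24 ± 0.16.

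The listed kallikrein proteases went the other way. KLK3, which encodes prostate-specific antigen, was at 2.17 ± 0.07 and KLK2 at 2.59 ± 0.08 in the authors' deposited table, both higher in C. KLK15 (1.52 ± 0.28), the MSMB-binding protein CRISP3 (1.52 ± 0.23) and TFF3 (2.72 ± 0.74) completed the C side in the authors' deposited table, the last at a mean of only 5.33 normalised counts. KLK3 minus AGR2 was 5.07 ± 0.13 log2 units, KLK3 minus MSMB 7.60 ± 0.27 and KLK3 minus SPINK1 9.09 ± 1.19. Within this list KLK2, KLK3 and KLK15 thus lay on the opposite side from the 3 members. The kallikreins KLK4 and KLK11 of the same list were not listed, so their direction is not known.

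**Figure D3:**
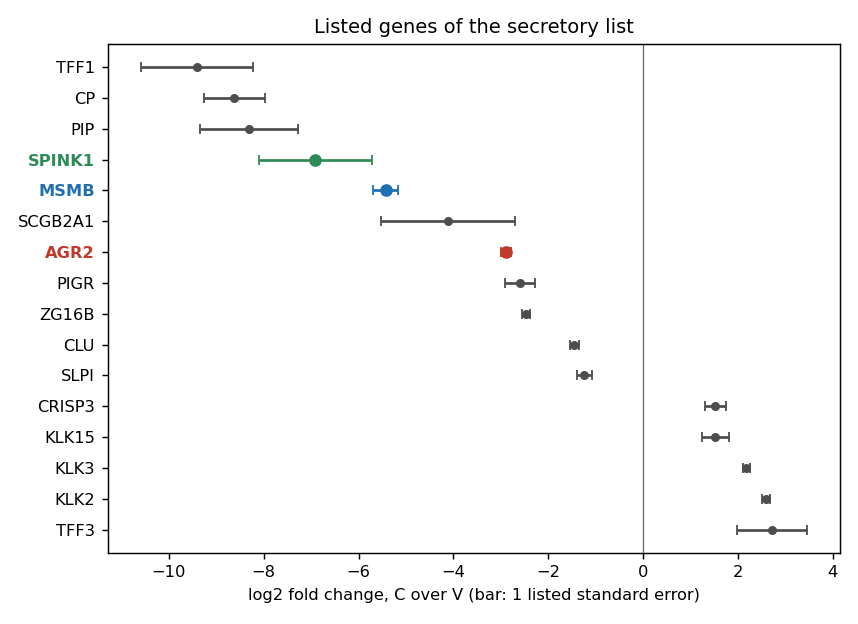
Log2 fold change of C over V with 1 listed standard error for the 16 listed genes of the secretory list, ordered from V to C. AGR2, MSMB and SPINK1 (coloured) lie left of 0, and KLK2, KLK3, KLK15, CRISP3 and TFF3 lie right of it.

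Per kilobase of annotated exon, the mixture of these 16 transcripts changed its leading members. With the union of exons as length, derived MSMB was 21.6 normalised counts per kb in C, 9th of the 16, and 927 in V, 1st of the 16. AGR2 went from 54.1 per kb (6th) in C to 403 (5th) in V, and SPINK1 from 1.68 (12th) to 203 (9th). KLK3 supplied 76.7% of the summed per-kilobase level of the 16 in C and 16.2% in V, whereas MSMB supplied 0.506% and 20.7%. The place of MSMB depends on the length used. With the median length of each gene's protein-coding transcripts, MSMB was 5th in V with 7.67%, KLK3 was 2nd with 25.5% and AGR2 4th with 11.6%. By that length CLU was 1st in V with 26.9%, and in C KLK3 was 1st and CLU 3rd. SPINK1 was then 8th in V. All levels here are derived from the authors' deposited table and carry no error of their own.

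Few relatives of AGR2 were listed. Of the 21 genes of the disulfide isomerase family only AGR2 and DNAJC10, a reductase of endoplasmic reticulum-associated degradation, were listed; DNAJC10 was at -1.26 ± 0.11 in the authors' deposited table. AGR3, the neighbouring close relative, was not listed. Of 16 regulators and partners of AGR2, 3 were listed and called, all higher in V. Of all listed protein-coding genes 92.7% were called, and 65.9% of the called ones were higher in V. A mean of at least 10 normalised counts left 1 of the 3. The secretory-stress factor XBP1 was at -1.81 ± 0.07 in the authors' deposited table, with derived levels of 1039 normalised counts in C and 3638 in V. The epithelial stress sensor ERN2 (-4.35 ± 1.41) and the EGFR ligand AREG (-4.25 ± 1.35) had derived C levels under 1 in the authors' deposited table. FOXA1, SPDEF and EGFR were not listed.

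Mucins, some of which AGR2 helps to fold, were listed on both sides. Of 18 mucin and trefoil genes, 9 were listed and 8 called, 6 higher in V (75%) and 2 higher in C, with a median of -3.75, beside 65.9% and -1.55 for all called protein-coding genes. The called genes on the C side were the gastric mucin MUC6 (5.50 ± 1.35) and TFF3, as given in the authors' deposited table. Their means were only 5.44 and 5.33 normalised counts. A mean of at least 10 left 4 called genes, 4 higher in V and 0 higher in C. Besides TFF1, the first by p were MUC5B (-3.66 ± 0.50), MUC21 (-8.61 ± 1.20) and MUC1 (-2.31 ± 0.42) in the authors' deposited table. Their derived V levels from the authors' deposited table were 48.4, 63.4 and 42.4 normalised counts, against 1147 for AGR2, with no allowance for length. The MUC21 level in C was 0.163, which leaves its fold change uncertain. The listed mucin with the highest derived level, the membrane mucin MUC13, was at 24.3 normalised counts in C and 121 in V, from the authors' deposited table, and was not called.

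Around MSMB the listed genes pointed in different directions. Of 9 relatives and binding proteins, MSMB was higher in V, and CRISP3 and CRISP2 were higher in C. CRISP2 had a mean of only 1.29 normalised counts according to the authors' deposited table, and its call was lost at an adjusted p under 0.01. Of the 13 polycomb repressive complex genes only the accessory subunit PHF1 was listed, at -1.33 ± 0.14 in the authors' deposited table. EZH2 was not listed.

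Of the 10 SPINK genes, SPINK1 and SPINK5, an epidermal inhibitor of kallikreins, were listed, and they went in opposite directions. SPINK5 was at 3.69 ± 1.38 in the authors' deposited table, higher in C, with derived levels of 48.0 normalised counts in C and 3.73 in V. The SPINK5 call was lost at an adjusted p under 0.01 and for a 95% interval beyond a log2 of 1. Of 16 trypsins and trypsin-like proteases, 6 were listed and 5 called, 4 of them higher in V (80%, beside 65.9% of all called protein-coding genes). In the authors' deposited table PRSS23 was at -7.80 ± 0.30, PRSS22 at -5.12 ± 0.38 and the membrane-anchored prostasin PRSS8 at -1.77 ± 0.11, while KLK2 was higher in C. The cationic trypsin PRSS1, a target of SPINK1, was at -3.30 ± 0.64 in the authors' deposited table, with derived levels of 2.48 in C and 24.4 in V. Trypsin genes are near-identical copies, so their reads may be divided.

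IL6-pathway and acute-phase genes that were called lay on the V side with SPINK1. Of 29 genes, 10 were listed and 9 called, all 9 higher in V with a median of -3.29, beside 65.9% and -1.55 for all called protein-coding genes. CP is counted here, in the secretory list and among the club markers. The kinase JAK2 was at -3.29 ± 0.12, the IL6-family cytokine LIF at -3.06 ± 0.19, the shared receptor chain IL6ST at -1.51 ± 0.11 and the receptor IL6R at -1.31 ± 0.10 in the authors' deposited table. The feedback inhibitor SOCS3 was at -5.34 ± 1.33 in the authors' deposited table, with derived levels of 0.299 in C and 12.1 in V. IL6 itself, the kinase JAK1, the factor STAT3 and the acute-phase genes CRP, HP and SERPINA3 were among the genes not listed. Whether any of these genes bears on SPINK1 was not tested.

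The SPINK1 promoter is shown because it holds the letters of a STAT site, the type of factor that acts downstream of IL6 receptors. The windows are the 250 bases before the RefSeq start sites, 5′ to 3′ along each gene, in GRCh38.p14. SPINK1 is at chr5:147831672-147831921, minus strand. AGR2 is at chr7:16805000-16805249, minus strand, inside the GENCODE gene body, and is shown for comparison. Capitals mark matches to the motifs searched.
SPINK1: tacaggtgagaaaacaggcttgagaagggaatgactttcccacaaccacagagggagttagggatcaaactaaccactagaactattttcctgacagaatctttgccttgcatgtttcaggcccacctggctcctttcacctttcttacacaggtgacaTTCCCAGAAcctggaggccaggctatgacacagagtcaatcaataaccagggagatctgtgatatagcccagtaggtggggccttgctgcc
AGR2: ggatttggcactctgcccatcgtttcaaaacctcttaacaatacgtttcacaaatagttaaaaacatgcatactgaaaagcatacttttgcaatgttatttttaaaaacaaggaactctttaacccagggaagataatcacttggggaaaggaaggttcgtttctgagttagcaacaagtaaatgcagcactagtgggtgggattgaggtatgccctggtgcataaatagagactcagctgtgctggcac

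The run TTCCCAGAA in SPINK1 lies 91 to 83 bases before the start site, at 147831754 to 147831762 of chromosome 5, which is 24 bases inside the outermost start that GENCODE gives. It matches the STAT palindrome TTCNNNGAA, held on either strand by 6.57% of the 35116 RefSeq windows of this length. Its first 7 bases also match, on the opposite strand, the IL6 response core CTGGGAA, held by 9.15% of windows; these matches overlap and are not separate. The other 11 of 13 motifs had no match in SPINK1, and none of the 13 matched in AGR2, which says only that these letters are not in these windows. Those without a match included the TATA box TATAAA (10.7% of windows) and the CCAAT box CCAAT (32.0%). Further motifs were the forkhead cores TGTTTAC (2.98%) and TGTTTGC (3.23%), the XBP1 and ATF6 core ACGTGG (8.37%), the AP-1 site TGANTCA (6.57%), the interferon-stimulated response core (3.02%) and the NF-kB site (5.67%). The last were the dioxin response core TTGCGTG (0.951%), the HNF4 core CAAAGTCCA (0.325%) and the ETS core GGAAGT (19.5%). Both windows were poorer in G and C than the median window of 58%, at 40.4% for AGR2 and 48.8% for SPINK1, with 3 CpG pairs in AGR2 and 0 in SPINK1. MSMB was not in the promoter table.

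SPINK1 in prostate cancer is known to occur with gut-type epithelial genes. Of 30 such genes, 11 were listed and 9 called, 7 higher in V (77.8%, beside 65.9% of all called protein-coding genes) and 2 higher in C. The called genes on the C side were TFF3 and A1CF (4.32 ± 1.39), the latter with derived levels of 222 normalised counts in C and 11.1 in V, from the authors' deposited table. The actin-bundling protein VIL1 had the highest level of the listed gut genes, 655 in C and 207 in V as derived from the authors' deposited table, and was not called. The gut factor HNF4G was at -1.75 ± 0.36 in the authors' deposited table, with derived levels of 34.3 normalised counts in C and 115 in V. CEACAM6 (-7.73 ± 1.23) and CEACAM5 (-5.97 ± 1.33) had derived V levels of 35.8 and 10.4 normalised counts and C levels under 1 in the authors' deposited table; the CEACAM genes are close copies. Of the 9 repressors and receptors linked to SPINK1, among them REST and EZH2, 0 were listed.

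**Figure D4:**
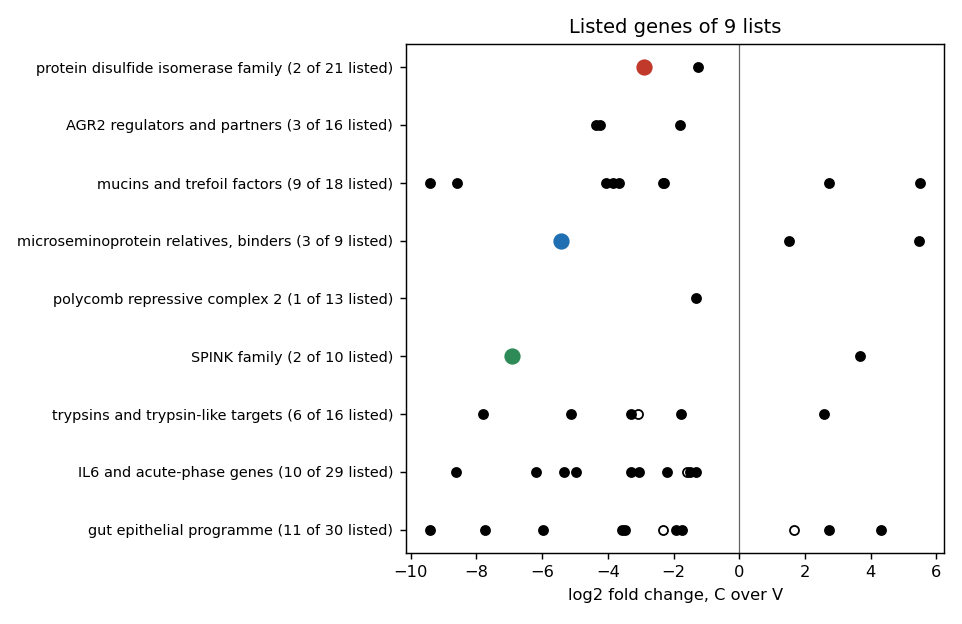
Log2 fold change of C over V for the listed genes of 9 lists around AGR2 (red), MSMB (blue) and SPINK1 (green); filled points are called and open points are not. All points of the IL6 and acute-phase list lie left of 0, while the SPINK family and the microseminoprotein relatives lie on both sides.

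The genes next to the 3 members on their chromosomes were examined because position played no part in choosing them. Within 500 kb of AGR2, 5 genes were listed and 3 called, all 3 higher in V. They were the tetraspanin TSPAN13 (-1.86 ± 0.10), the aryl hydrocarbon receptor AHR (-4.03 ± 0.28) and the pseudogene RAD17P1 (-1.28 ± 0.35) in the authors' deposited table. Of all listed genes 43.4% were called higher in V and 46.1% higher in C. Not called were the pseudogene AC098592.2 (4.36 ± 1.92), toward C, and the antisense AC073332.1 (-2.24 ± 1.11), toward V. Their means were 1.45 and 4.31 normalised counts. The gap to AGR2 was 7.28 kb for TSPAN13 and 82.9 kb for AHR. Pseudogene reads can come from the parent gene.

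The called genes around MSMB and SPINK1 were mixed in direction. Within 500 kb of MSMB 3 pseudogenes were called, 1 higher in V and 2 higher in C, and the nearest, RPL23AP61 at 17.0 kb, was at 6.24 ± 0.45 in the authors' deposited table. All 4 listed genes around SPINK1 were called, 3 of them higher in C, including the cytoskeletal regulator DPYSL3 (3.85 ± 0.13) and SPINK5, and 1 higher in V, the kinase STK32A (-2.84 ± 0.49), in the authors' deposited table. Over the 3 regions, 10 listed neighbours were called, 5 in each direction. Of the 5380 called genes in the whole list, 2609 were higher in V and 2771 higher in C. These are 43.4% and 46.1% of all listed genes, called or not.

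**Figure D5:**
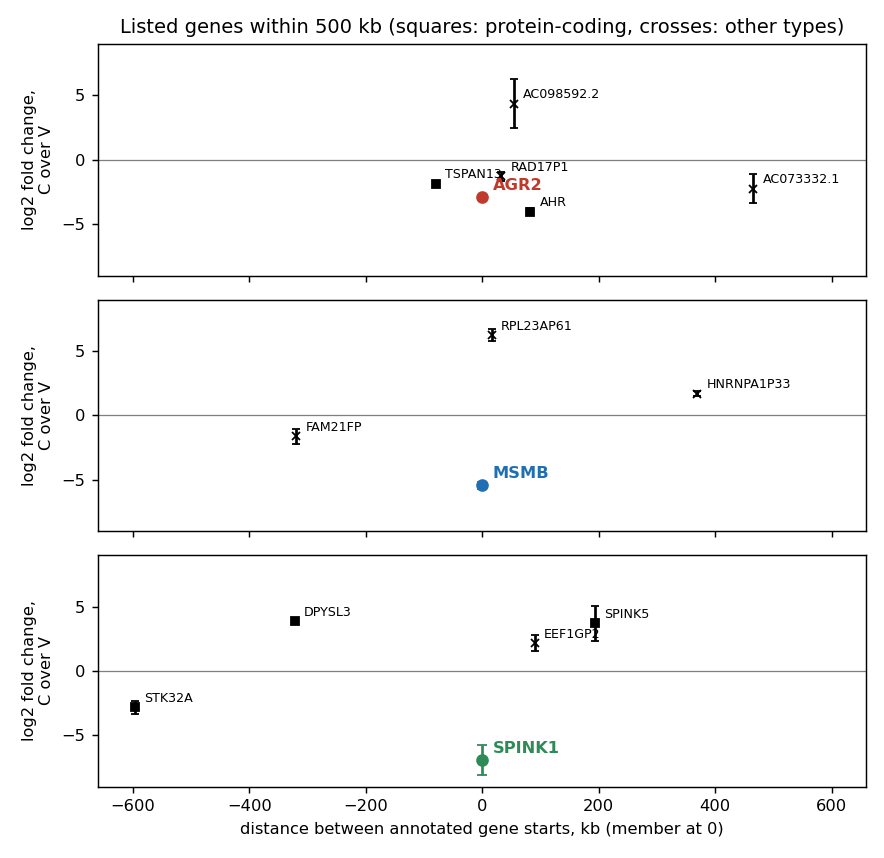
Log2 fold change of C over V (vertical, bars 1 listed standard error) of listed genes within 500 kb of AGR2, MSMB and SPINK1, against the distance between gene starts in kb. TSPAN13 and AHR lie below 0 with AGR2, and AC098592.2, which was not called, lies above 0. The nearest listed genes to MSMB and SPINK1, RPL23AP61 and EEF1GP2, lie above 0.

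Luminal identity genes were listed in small number. Of 21, 5 were listed and called, 4 higher in V (80%, beside 65.9% of all called protein-coding genes): SLC44A4 (-1.38 ± 0.08), TSPAN1 (-1.47 ± 0.09), KRT8 (-1.45 ± 0.10) and CD24, all as given in the authors' deposited table, while the channel TRPM8 (1.58 ± 0.12) was higher in C. The derived KRT8 levels in the authors' deposited table, 1364 normalised counts in C and 3715 in V, and those of KLK3, 15170 and 3363, show luminal prostate transcripts on both sides. HOXB13 and KRT18 were not listed, so the label could not be checked further. Of 20 androgen-induced genes 3 were called, KLK2 and KLK3 higher in C and in V the prostaglandin dehydrogenase HPGD (-1.35 ± 0.53), as given in the authors' deposited table. The HPGD call was lost at an adjusted p under 0.01, at a log2 change of 2 or more and for a 95% interval beyond a log2 of 1, which left 0 of these genes in V and 2 in C.

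Called club and basal markers lay mostly on the V side with the 3 genes, and called neuroendocrine markers on the C side. Of all called protein-coding genes 65.9% were higher in V, and 92.7% of the listed ones were called. Of 17 club and hillock markers, 7 were listed and called, 6 higher in V (85.7%). The derived levels of the 7 summed to 1373 normalised counts in C, of which KRT19 gave 1297. They summed to 6423 in V, of which S100P gave 4757. The authors' deposited table has S100P (-7.51 ± 0.17) and PSCA (-4.27 ± 0.17) on the V side and KRT19 (2.33 ± 0.18) on the C side. Of 12 basal markers, 7 were listed and called, every one on the V side, with summed levels of 36.7 in C and 1029 in V. The keratin KRT6A (-11.42 ± 1.18) had the highest V level of the 7, at 446 normalised counts, and the smallest p-values were those of LAMB3 (-5.84 ± 0.37) and ITGB4 (-2.27 ± 0.21) in the authors' deposited table; the basal factor TP63 was not listed. Of 12 neuroendocrine markers, 2 were listed and called, SNAP25 (5.64 ± 1.28) and SRRM4 in the authors' deposited table, both higher in C. Their summed levels were 1863 in C, of which SRRM4 gave 1718, and 54.4 in V. Solved for as above with 3 libraries a side, their dispersions were 1.00 and 1.11. Both markers may thus differ widely between libraries. CHGA and SYP were not listed. Called markers outside the epithelium summed to 92.5 normalised counts in V and 1.79 in C for 5 of 12 leukocyte genes. For 3 of 10 endothelial genes the sums were 59.1 in V and 5.16 in C. For 3 of 10 fibroblast genes they were 329 in V, of which COL1A1 gave 294, and 91.0 in C. The levels of the unlisted markers are not known. The part of these other cell markers in the AGR2, MSMB and SPINK1 values was not tested.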

How the data were processed

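The 6 libraries were read as 50 bp single ends from 1 µg of total RNA, per the labels' protocols; these name TruSeq V2 as well as the stranded TruSeq kit for total RNA. The submitters' processing notes name FastQC and Cufflinks 2.2.1 but no role for them; aligner, counter and build: not given in the sources used here. Per the file headers, the deposited mean of normalised counts is a signal over all samples, the log2 ratio of C to V is DESeq2's maximum likelihood estimate, its standard error and Wald statistic are the authors' score columns, and the p-value is the authors' Wald test with Benjamini-Hochberg adjustment.

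No test was run here, since the table has no library columns and the 3 members and the 19 lists were chosen with earlier results of these data known. The lists overlap, and CP, TFF1, TFF3, PIGR and KLK2 are among the genes counted in more than 1 list. The shares of different lists are therefore not separate observations. Derived levels are the values for C and V that give the listed mean and ratio if both sides hold equally many libraries. The dispersion solved for was (n × SE² - 1/C - 1/V)/2 on the natural log scale with n of 3; the formula gave back known dispersions from standard errors calculated with them. Intervals are 95%, from the standard error. An adjusted p of 0 beside a p above 0 (4 genes) was read as not given. Named genes were the 3 members, up to 4 genes of each list with the smallest p, the 3 called protein-coding genes nearest to each member, listed genes within 500 kb and a fixed set of regulators; others were named after their values were seen. Symbols were matched by Ensembl ID; GENCODE release 29 holds 5935 of the 6018 genes and need not be the authors' annotation. Promoters are RefSeq's. Python 3.11.15 with pandas 2.3.3 and numpy 2.4.6 was used.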

Additional observations from a re-analysis of the deposited data

How the results depend on the processing

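No paired analysis was possible because the table has no column per library, and for the same reason no library could be left out and no other normalisation tried. The calls of AGR2, MSMB and SPINK1 held with an adjusted p under 0.01, with log2 changes of 2 or more in size, and for a 95% interval beyond a log2 of 1. If C had 3 libraries and V 2, derived levels in normalised counts would be 182 (C) and 1354 (V) for AGR2, 13.1 and 564 for MSMB, and 374 in V for SPINK1; with 2 and 3 they would be 133 and 995 for AGR2, 383 in V for MSMB and 251 in V for SPINK1. With 2 libraries a side, chosen after seeing the data, the dispersion would be 0.477 for SPINK1 and 0.00157 for AGR2 and negative, hence unusable, for MSMB. AGR2 exceeded 61.3% of all listed genes in fold size, and among protein-coding genes with a mean of at least 100 it exceeded 84.4%, MSMB 95.3% and SPINK1 97.3%. A mean of at least 100 left 10 of the 16 called secretory genes, 8 higher in V, and 33 of the 79 called genes over all lists; for the IL6 and acute-phase list it left 5 of 9, all higher in V, and for the mucin list 1 of 8. Called neighbours numbered 6 within 250 kb and 15 within 1 Mb, against 10 within 500 kb. Genes with few reads, SPINK1 in C among them, have the least certain fold changes.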
